A study of Mus musculus with 12 samples.

Results

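Solute carriers are membrane proteins that move small molecules across the plasma membrane or an organelle membrane, and their gene symbols begin with Slc followed by a family number. The platform annotation gave 419 probe sets a single symbol of this form, and these covered 262 genes. Where a gene had several, the one with the greatest average across all arrays stood for it, and the 110 genes whose overall mean signal exceeded 4 on the log2 scale are described here. They were thus chosen by a measured value, the mean over both genotypes together. Just inside this limit lay Slc22a17 (mean 4.01), Slc8a1 (4.06) and Slc22a27 (4.08), and just outside it lay Slc6a18 and Slc38a4 (both 4.00 after rounding) and Slc16a6 (3.93). Of the 110 genes, 2 had a mean above 4 in the knockout only, Slc22a17 and Slc8a1, and no gene had one in the wild type only.

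Both groups were mammary tumours from FVB females with the MMTV-c-myc transgene, in which the promoter of the mouse mammary tumour virus drives the Myc oncogene in mammary epithelium. 6 arrays carried RNA of tumours from Hunk KO mice, in which a neomycin cassette replaced the putative promoter and the first exon of Hunk, an Snf1-related protein kinase, and 6 carried RNA of tumours from Hunk WT mice. The targeting used E14 embryonic stem cells, the females had been mated before tumours were collected, and the labels give no age. The series as a whole concerns Hunk in mammary tumour metastasis. The labels number the arrays 1 to 6 within each genotype without stating whether these were different mice, so the p-values below measure the spread between these samples, which may be in part technical. The deposited values were log2 GCRMA signals.

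Carriers work by changing shape around their substrate, and many couple the movement of a nutrient to the flow of sodium or protons down a gradient that the sodium pump and other ion pumps keep up. The mammary gland is known for heavy carrier use, since milk synthesis draws amino acids, peptides, glucose, phosphate, zinc and calcium from the blood. Tumours are likewise known for high levels of carriers of glucose, glutamine, large neutral amino acids and lactate.

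Hunk, on chromosome 16, was at or below array background in all 6 knockout arrays (log2 signal 2.95 ± 0.17, SD, n = 6) and above it in 4 of 6 wild-type arrays (4.21 ± 1.05, SD, n = 6). Array background was taken as the highest Bacillus control probe set, and it averaged 3.71 ± 0.15 in the knockout and 3.60 ± 0.10 in the wild type (SD, n = 6 each). Of the 110 carrier genes, 105 were above background on all 12 arrays, and 11 stayed within 1 log2 unit of it on all 12. The difference between the 3′ and 5′ probe sets of beta-actin, a measure of RNA integrity and labelling, was 1.51 ± 0.15 in the knockout and 1.29 ± 0.05 in the wild type (SD, n = 6 each), and its part in the results was not tested beyond the fit with it as a covariate. Knockout arrays 4 and 5 resembled each other more than any other pair within a genotype. The SD of their difference was 0.333 over the genes tested, against 0.542 for the next closest pair, wild-type arrays 3 and 4, and results that changed when arrays 4 and 5 were averaged are given both ways.

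Few of the 110 genes differed between the genotypes by more than the spread between arrays. In the knockout, 4 rose: Slc15a2, a peptide carrier, Slc3a2, the heavy chain of amino acid exchangers, Slc5a1, a sodium-coupled glucose carrier, and Slc8b1, a sodium-calcium exchanger of mitochondria. 1 fell, Slc6a15, a sodium-coupled carrier of neutral amino acids. The other 105 did not pass the threshold of 0.05 on the adjusted p of limma, a linear model fitted to all 6825 genes tested. The 4 risen genes are 3.64% of the 110, against 1.66% of all genes tested, and the 1 fallen gene is 0.909%, against 1.68%. Over all genes tested, 3.34% passed in either direction.

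The 5 genes are named with their sequences below where RefSeq gives a window before the listed transcript start. Entries were found for Slc3a2, Slc5a1 and Slc15a2. The 250 bases before the start, on the gene's own strand in assembly GRCm38.p6, are printed to show what these risen genes carry there. Capitals mark CACGTG, the E-box, a motif that Myc and related factors are known to bind and that was searched because every tumour carried the Myc transgene. The windows lie at chr19:8713898-8714147 on the minus strand for Slc3a2, at chr5:33103969-33104218 on the plus strand for Slc5a1 and at chr16:36784963-36785212 on the minus strand for Slc15a2. The Slc3a2 window lies inside the span of its gene, which begins on that strand at 8723369. Most of the Slc15a2 window lies inside its gene, which begins at 36785158. For these genes the window is thus not that before the outermost start.
Slc3a2: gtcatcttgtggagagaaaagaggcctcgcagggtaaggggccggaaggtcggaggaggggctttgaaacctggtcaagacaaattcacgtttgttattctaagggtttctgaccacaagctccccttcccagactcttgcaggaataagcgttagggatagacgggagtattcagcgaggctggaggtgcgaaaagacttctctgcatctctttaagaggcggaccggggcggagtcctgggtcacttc
Slc5a1: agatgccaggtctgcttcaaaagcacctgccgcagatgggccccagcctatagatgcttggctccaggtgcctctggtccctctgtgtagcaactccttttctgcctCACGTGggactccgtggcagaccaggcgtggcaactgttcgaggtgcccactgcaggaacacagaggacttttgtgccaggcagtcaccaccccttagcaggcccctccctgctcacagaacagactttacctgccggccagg
Slc15a2: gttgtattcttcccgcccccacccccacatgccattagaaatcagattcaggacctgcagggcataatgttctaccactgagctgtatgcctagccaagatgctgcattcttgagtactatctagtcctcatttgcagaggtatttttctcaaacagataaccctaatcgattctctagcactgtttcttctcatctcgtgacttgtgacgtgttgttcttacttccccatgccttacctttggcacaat
The Slc5a1 window held 1 E-box, whose first base lies 143 bases before the start, and the other windows held none. CACGTG, which reads the same on both strands, was present in 13 of 120 windows of 86 of the 110 genes (10.8%), against 1978 of 32851 windows of the whole RefSeq table (6.02%). The amino acid response motif TGATGNAA, known from genes induced by amino acid shortage and searched on both strands, was in none of the 3 printed windows, in 2 of the 120 (1.67%) and in 1134 of the 32851 (3.45%). The 13 genes with an E-box included Slc16a1, Slc37a3 and Slc29a1, whose changes were negative, and Slc5a1, which rose. A match of letters is a description of the window and not a site that was shown to be bound.

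**Figure D1:**
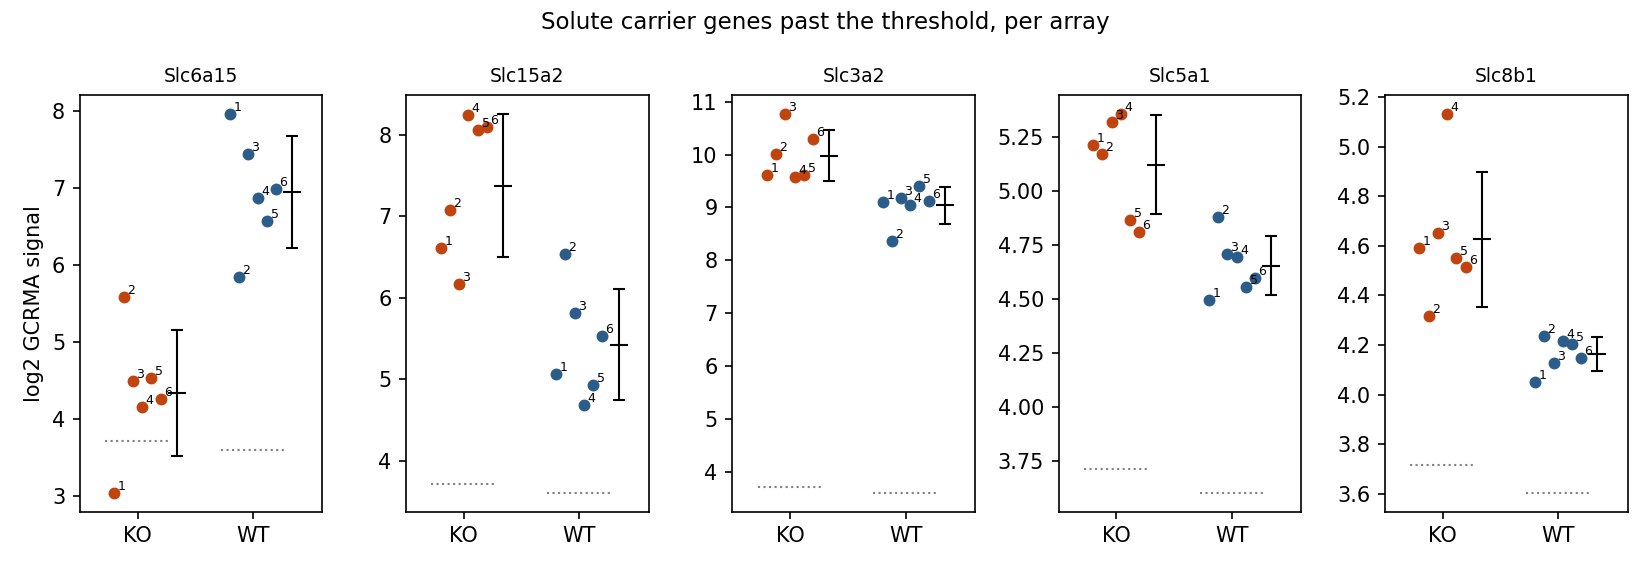
Log2 GCRMA signal of the 5 solute carrier genes that passed the threshold, with 1 point per array, numbered as in the labels, for the 6 knockout arrays on the left and the 6 wild-type arrays on the right of each panel. Horizontal ticks with bars are the mean and SD, and dotted lines are the mean array background of the genotype. Slc6a15 lies lower in all 6 knockout arrays than in any wild-type array, Slc3a2 and Slc8b1 lie higher in all 6, and the groups overlap for Slc15a2 and Slc5a1.

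The peptide carriers take up dipeptides and tripeptides together with protons. Slc15a2, the high-affinity carrier of the family, known from kidney, brain and mammary epithelium, had a lowest, median and highest log2 signal of 6.17, 7.57 and 8.25 in the knockout, against 4.68, 5.30 and 6.54 in the wild type. The groups overlapped at 1 array on each side, knockout array 3 at 6.17 and wild-type array 2 at 6.54, and the other 5 knockout arrays lay above every wild-type array. Its mean was 7.38 ± 0.88 in the knockout and 5.43 ± 0.68 in the wild type (SD, n = 6 each), a log2 change of 1.95 (SE 0.42, limma adjusted p = 0.0282) or 3.87-fold. A second probe set of the gene had a change of 1.71 (SE 0.61) that did not pass (adjusted p = 0.152). The call was lost without knockout array 4, 5 or 6 or wild-type array 1, 4 or 5, over a range of adjusted p from 0.0166 to 0.0707 for all 12 arrays left out in turn, and with knockout arrays 4 and 5 averaged the adjusted p was 0.0578.

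The relatives of Slc15a2 did not pass. Slc15a4, a histidine and peptide carrier of lysosomes, ran between 6.10 and 8.18 in the knockout and between 7.03 and 7.63 in the wild type, a change of -0.15 (adjusted p = 0.810). Slc15a1, the low-affinity carrier of the intestine, ran between 4.07 and 4.41 in the knockout and between 3.98 and 4.27 in the wild type (change 0.09, adjusted p = 0.486), within 1 log2 unit of array background throughout. Slc15a2 lies on chromosome 16, as Hunk does, together with 1 other of the 110 genes, Slc35a5, a nucleotide sugar carrier family member whose change was -0.26 (adjusted p = 0.780). None of the 110 genes lies within 10 Mb of Hunk.

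Among the 14 amino acid carriers, 1 rose, 1 fell and 12 did not pass, with a median log2 change of 0.07 beside 0.0065 over all genes tested. Slc6a15, which imports branched-chain amino acids, methionine and proline with sodium, had a lowest, median and highest signal of 3.04, 4.38 and 5.59 in the knockout, against 5.84, 6.93 and 7.97 in the wild type. The groups did not overlap. In knockout array 1 the signal was at or below array background, and in arrays 3, 4, 5 and 6 it was under 1 log2 unit above it. Of the knockout arrays, only array 2 lay further above. GCRMA compresses differences this near background, which limits what the size of the fall can show. The gene had 1 probe set. The mean was 4.35 ± 0.82 in the knockout and 6.95 ± 0.73 in the wild type (SD, n = 6 each). The log2 change of -2.60 (SE 0.41, limma adjusted p = 0.00572), 6.07-fold lower in the knockout, was the largest fall among the 110 genes and passed with each of the 12 arrays left out (adjusted p from 0.00432 to 0.0187). Slc6a14, another amino acid carrier of the same family, had values between 4.22 and 4.73 in the knockout and between 4.09 and 4.47 in the wild type (adjusted p = 0.336), close to background in both.

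Slc3a2 encodes the CD98 heavy chain, a single-pass protein that pairs with a light chain such as Slc7a5 and brings it to the plasma membrane. Its lowest, median and highest signal was 9.58, 9.81 and 10.77 in the knockout, against 8.37, 9.11 and 9.41 in the wild type. All 6 knockout arrays lay above every wild-type array. The mean was 9.98 ± 0.48 in the knockout and 9.04 ± 0.35 in the wild type (SD, n = 6 each), a log2 change of 0.94 (SE 0.23, adjusted p = 0.0470) or 1.92-fold. The adjusted p stayed under the threshold for 1 of the 12 arrays left out in turn, knockout array 1, with a range of 0.0465 to 0.0950, and was 0.0566 with knockout arrays 4 and 5 averaged. With a term for the beta-actin difference the change was 0.52 (adjusted p = 0.473).

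The light chains and the other amino acid carriers did not pass. Slc7a5, the exchanger of large neutral amino acids and the best known partner of Slc3a2, had a lowest, median and highest signal of 9.96, 10.39 and 11.79 in the knockout and of 9.49, 10.02 and 10.21 in the wild type, a change of 0.64 (SE 0.28, adjusted p = 0.231). 3 of 6 knockout arrays, 2, 3 and 6, lay above every wild-type array, and these same 3 arrays had the highest Slc3a2 signals of the group. They also had the 3 highest summed signals of milk and alveolar genes in the knockout. With the mean of the milk markers as a covariate the change of Slc7a5 was 0.32 (limma adjusted p = 0.432). Slc7a6 and Slc7a7, light chains for cationic amino acids, had changes of 0.18 (adjusted p = 0.539) and -0.17 (adjusted p = 0.804). The glutamine carriers also did not pass. Slc38a1 ran from 3.56 to 7.03 in the knockout, with a median of 4.16, and from 3.58 to 7.38 in the wild type, with a median of 6.01, a change of -1.16 (adjusted p = 0.402), so that both genotypes covered almost the same range. Slc38a2 had a change of -0.34 (adjusted p = 0.444) and Slc1a5 one of -0.06 (adjusted p = 0.958). Slc1a1, a glutamate and cysteine carrier, had the largest positive change in the class after Slc3a2, 0.69 (SE 0.24, adjusted p = 0.145), with values of 4.72 to 5.77 in the knockout and of 3.73 to 5.32 in the wild type.

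Of the 4 genes classed with glucose and sugar phosphate, 1 rose and 3 did not pass, with a median change of 0.33. Slc5a1, which couples the uptake of glucose and galactose to sodium, had a lowest, median and highest signal of 4.81, 5.19 and 5.36 in the knockout, against 4.50, 4.65 and 4.88 in the wild type. Wild-type array 2, at 4.88, lay above knockout arrays 5 and 6, and 4 of 6 knockout arrays lay above every wild-type array. The means were 5.12 ± 0.23 in the knockout and 4.66 ± 0.14 in the wild type (SD, n = 6 each), a log2 change of 0.47 (SE 0.11, adjusted p = 0.0470) or 1.38-fold. The second probe set had a change of 0.57 (SE 0.39, adjusted p = 0.425), with a signal of 7.07 in knockout array 1 and of 4.17 to 4.71 in the other arrays. The call was kept only without knockout array 5, knockout array 6 or wild-type array 2 among the 12 arrays left out (adjusted p from 0.0385 to 0.0950), and the adjusted p was 0.0549 with knockout arrays 4 and 5 averaged.

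Slc2a1, the facilitative glucose carrier GLUT1 found in most cells, had a lowest, median and highest signal of 8.09, 9.81 and 10.33 in the knockout, against 8.11, 8.89 and 9.29 in the wild type. 5 of 6 knockout arrays lay above every wild-type array, and knockout array 1 lay below all of them. The change of 0.76 (SE 0.35) did not pass (adjusted p = 0.249). Without knockout array 1 it was 1.06 (SE 0.24, adjusted p = 0.0375), and with a term for the beta-actin difference it was -0.066 (adjusted p = 0.972). Slc5a2, the sodium-coupled relative known from the kidney tubule, had a change of 0.18 (adjusted p = 0.600). Slc37a3, placed here by its sugar phosphate family, ran between 4.90 and 6.90 in the knockout and between 6.25 and 7.49 in the wild type, a change of -0.84 (SE 0.31, adjusted p = 0.159) that was -0.074 with a term for the beta-actin difference and -0.38 with one for the adipocyte mean.

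The monocarboxylate carriers move lactate and pyruvate together with protons, and neither of the 2 whose mean exceeded 4 passed. Slc16a1, which takes lactate in either direction, had a lowest, median and highest signal of 7.66, 8.93 and 9.13 in the knockout, against 9.23, 9.61 and 9.74 in the wild type. The groups did not overlap, and knockout array 1 stood below the other 5. The change was -0.80 (SE 0.23, adjusted p = 0.0789), and without knockout array 1 it was -0.58 (SE 0.12, adjusted p = 0.0317). It also passed with a term for the beta-actin difference (-1.39, adjusted p = 0.0364) and with array weights (-0.73, adjusted p = 0.0343). Slc16a3, the low-affinity carrier known for lactate export from glycolytic cells, had 4.03, 5.36 and 6.63 in the knockout, against 4.05, 4.13 and 4.37 in the wild type. All 6 wild-type arrays and knockout array 1 lay between 4.03 and 4.37, each under 1 log2 unit above its array background. The other 5 knockout arrays lay above every wild-type array. The change was 1.18 (SE 0.34, adjusted p = 0.0858), and without knockout array 1 it was 1.44 (SE 0.28, adjusted p = 0.0214). With array weights it was 1.36 (adjusted p = 0.0166). The difference between the 2 genes was not tested.

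Basigin (Bsg), the chaperone that carries both proteins to the membrane, averaged 10.66 ± 0.27 in the knockout and 9.93 ± 0.45 in the wild type (SD, n = 6 each) and did not pass (change 0.73, adjusted p = 0.0771). It passed with array weights (0.82, adjusted p = 0.0213) and with each array centred on its median (0.77, adjusted p = 0.0364). Slc13a3, a sodium-coupled carrier of dicarboxylates, lay within 1 log2 unit of background on all arrays (change 0.20, adjusted p = 0.306).

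**Figure D2:**
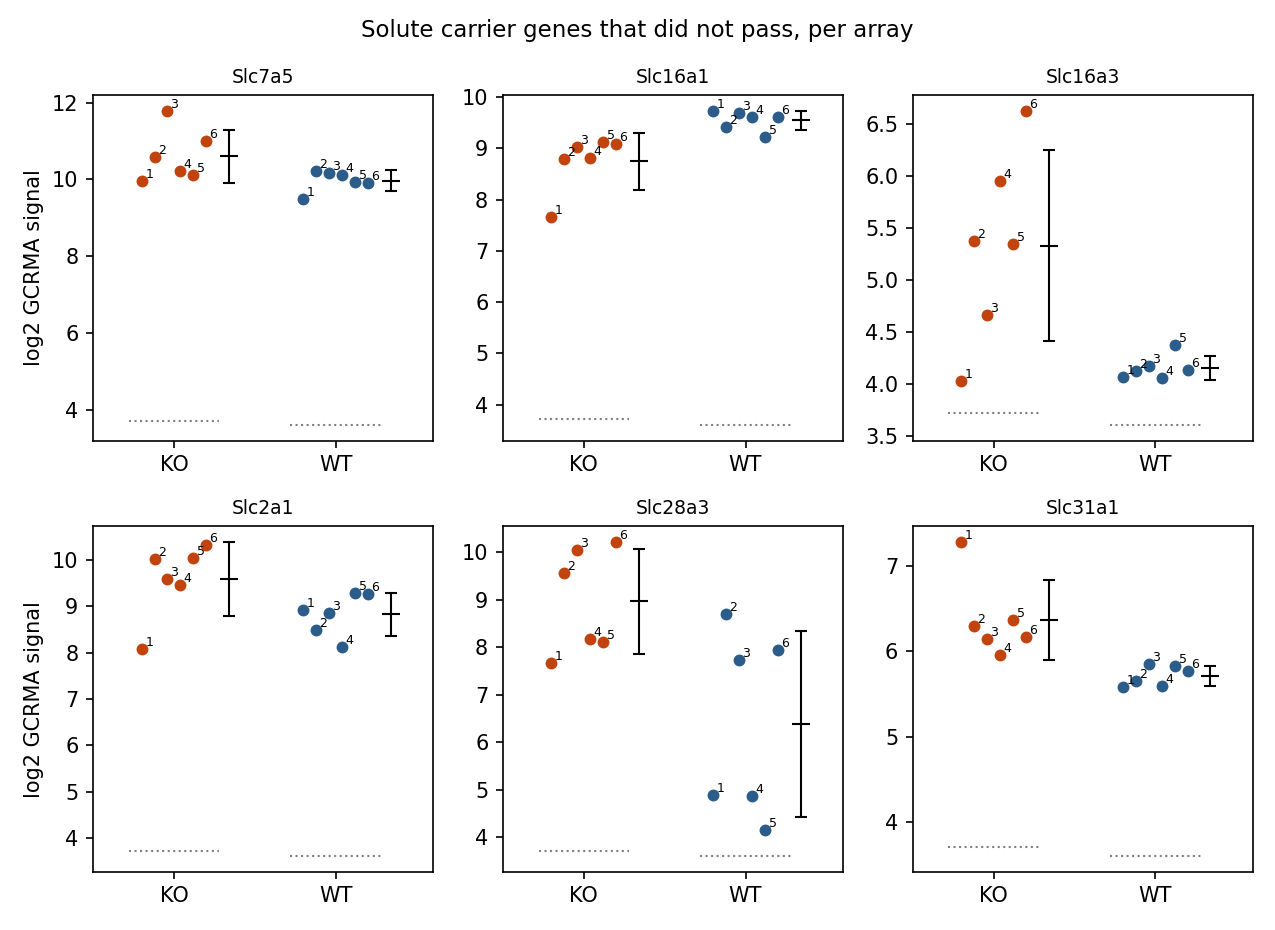
Log2 GCRMA signal of 6 solute carrier genes that did not pass the threshold, with 1 point per array, for knockout arrays on the left and wild-type arrays on the right of each panel, mean and SD beside them and dotted lines at the mean array background. Knockout array 1 is the lowest knockout array for Slc7a5, Slc16a1, Slc16a3, Slc2a1 and Slc28a3 and the highest for Slc31a1. Slc28a3 is high in wild-type arrays 2, 3 and 6 and low in 1, 4 and 5.

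Among the 12 carriers of ions, 1 rose and 11 did not pass, with a median change of 0.08. Slc8b1, which releases calcium from mitochondria in exchange for sodium, had a lowest, median and highest signal of 4.32, 4.57 and 5.13 in the knockout, against 4.05, 4.18 and 4.24 in the wild type. The groups did not overlap, though every wild-type value was under 1 log2 unit above the background of its genotype. So was every knockout value but that of array 4 (5.13). The means were 4.63 ± 0.27 in the knockout and 4.16 ± 0.07 in the wild type (SD, n = 6 each), a log2 change of 0.46 (SE 0.11, adjusted p = 0.0470) or 1.38-fold. GCRMA compresses differences this near background. The call was kept without knockout array 2 or 4 and lost without any 1 of the other 10 arrays (adjusted p from 0.0304 to 0.0933), and it was kept with knockout arrays 4 and 5 averaged (adjusted p = 0.0434). Its relative Slc8a1, the exchanger of the plasma membrane, was close to background in both genotypes (change 0.13, adjusted p = 0.453).

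Slc12a2, the sodium, potassium and chloride cotransporter of secretory epithelia, varied widely within both genotypes, with 6.82, 8.49 and 9.36 as lowest, median and highest signal in the knockout and 8.13, 9.08 and 10.64 in the wild type. Its change of -0.98 (SE 0.54) did not pass (adjusted p = 0.337). It was -0.24 with a term for the milk mean or the adipocyte mean and -0.055 with one for the beta-actin difference. Slc20a2, a sodium-coupled phosphate carrier, ran between 6.01 and 6.66 in the knockout and between 6.44 and 7.32 in the wild type (change -0.30, adjusted p = 0.338). Slc4a4, a sodium and bicarbonate cotransporter, ran between 4.25 and 5.43 in the knockout and between 3.93 and 4.42 in the wild type (change 0.37, adjusted p = 0.285). The remaining ion carriers, among them the chloride and bicarbonate exchanger Slc4a2, the sulfate carrier Slc26a2 and the magnesium carrier Slc41a1, had changes between -0.14 and 0.21.

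No gene of the 15 carriers of trace metals passed, and 13 had a positive change, with a median of 0.16. Slc31a1, the main copper importer, had a lowest, median and highest signal of 5.95, 6.23 and 7.28 in the knockout, against 5.58, 5.71 and 5.85 in the wild type. The groups did not overlap, and the highest value was that of knockout array 1. The change of 0.66 (SE 0.19) had an adjusted p of 0.0881, and without knockout array 1 it was 0.48 (SE 0.11, adjusted p = 0.0446). With a term for the beta-actin difference it was 1.13 (adjusted p = 0.0428). Slc39a7, which releases zinc from the endoplasmic reticulum, ran between 9.35 and 9.71 in the knockout and between 8.71 and 9.36 in the wild type. Only wild-type array 6, at 9.36, reached the lowest knockout array, and the change of 0.47 (SE 0.12) had an adjusted p of 0.0603, and of 0.0362 with array weights.

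The other zinc carriers went either way. Slc39a11 ran between 7.00 and 7.76 in the knockout and between 5.35 and 7.62 in the wild type, a change of 0.74 (SE 0.31, adjusted p = 0.218). Slc39a6, an importer known as an oestrogen-regulated gene of human breast cancer cells, ran between 6.56 and 8.19 in the knockout and between 7.96 and 8.45 in the wild type (change -0.53, adjusted p = 0.275). Its change was -0.30 (adjusted p = 0.299) without knockout array 1, -1.25 (adjusted p = 0.04995, just under the threshold) with a term for the beta-actin difference and -1.14 (adjusted p = 0.0805) with one for the adipocyte mean. Slc30a5, which loads zinc into the secretory pathway, had a change of -0.12 (adjusted p = 0.710), and Slc30a4, a zinc carrier known for its part in milk, one of 0.21 (adjusted p = 0.597). The iron carrier Slc11a2 spanned 3.77 to 7.39 in the knockout and 3.72 to 5.93 in the wild type (change 0.43, adjusted p = 0.695).

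The Slc25 family, the carriers of the inner mitochondrial membrane, was the largest class with 22 genes. None passed, 15 had a positive change, and the changes ran from -0.60 to 0.56 with a median of 0.10. At the positive end stood Slc25a20, which exchanges carnitine and acylcarnitine for fatty acid oxidation, with 7.01 to 7.70 in the knockout and 6.19 to 7.36 in the wild type (change 0.56, SE 0.21, adjusted p = 0.160). Slc25a23, a calcium-regulated carrier of ATP-magnesium and phosphate, followed with 5.87 to 6.67 in the knockout and 5.50 to 5.83 in the wild type. These groups did not overlap, and the change was 0.43 (SE 0.15, adjusted p = 0.132).

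At the negative end stood Slc25a17, a family member of the peroxisome membrane, with 6.25 to 8.75 in the knockout and 7.36 to 8.83 in the wild type (change -0.60, adjusted p = 0.424), and Slc25a37, the mitochondrial iron importer, with 7.23 to 7.82 in the knockout and 7.63 to 8.71 in the wild type (change -0.28, adjusted p = 0.427). The ADP and ATP exchangers had changes of -0.27 for Slc25a4 (adjusted p = 0.554) and 0.31 for Slc25a5 (adjusted p = 0.249). The phosphate carrier Slc25a3 had one of 0.25 (adjusted p = 0.207). For the metabolite carriers the changes were 0.16 for the dicarboxylate carrier Slc25a10, -0.20 for the oxoglutarate carrier Slc25a11 and 0.13 for the ornithine carrier Slc25a15.

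**Figure D3:**
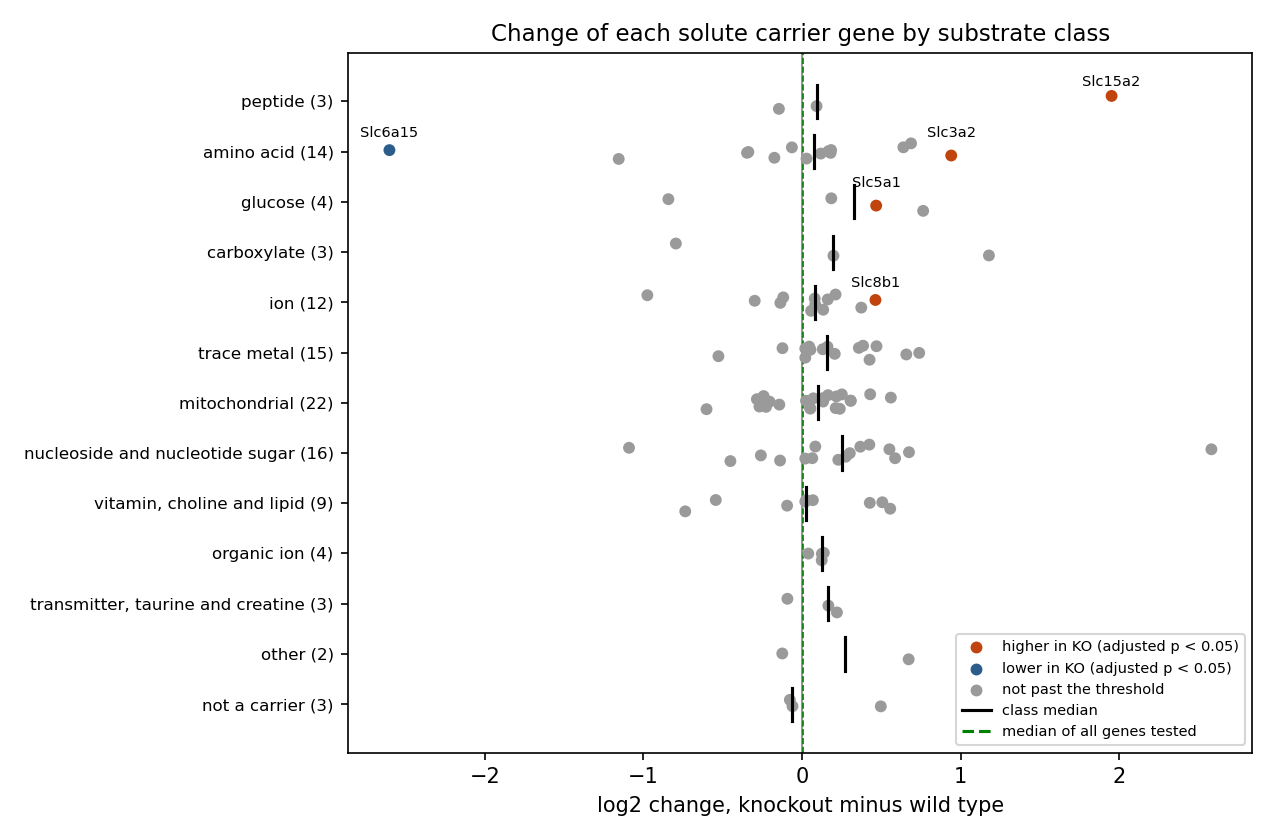
Log2 change, knockout minus wild type, of each of the 110 genes named as solute carriers, by substrate class, with the number of genes in parentheses. Points are genes, coloured by whether they passed the threshold and in which direction, black ticks are class medians and the dashed line is the median of all genes tested. The 5 named points passed, 3 of the 4 that rose have changes under 1, and the 22 mitochondrial genes lie between -0.60 and 0.56.

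None of the 16 carriers of nucleosides and nucleotide sugars passed, although the class held the largest positive change of the 110 genes. Slc28a3, which takes up nucleosides against their gradient with sodium or protons, had a lowest, median and highest signal of 7.67, 8.88 and 10.21 in the knockout, against 4.16, 6.31 and 8.70 in the wild type. The groups overlapped, with 3 of 6 knockout arrays above every wild-type array, and the 12 values spanned 6.05 log2 units, the widest of the 110. The change of 2.58 (SE 0.83) had an adjusted p of 0.114. In each genotype arrays 2, 3 and 6 had the 3 highest Slc28a3 values, and in each genotype arrays 2, 3 and 6 also had the 3 highest summed signals of milk and alveolar genes, 39081, 59722 and 63325 in the knockout and 31627, 11636 and 14659 in the wild type. With the mean of the milk markers as a covariate the change was 1.57 (SE 0.53, adjusted p = 0.130), and with the mean of the adipocyte markers it was 0.76 (SE 0.96, adjusted p = 0.766).

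Slc29a1, an equilibrative nucleoside carrier, went the other way, with 5.46, 6.78 and 7.48 as lowest, median and highest signal in the knockout and 4.73, 8.09 and 9.96 in the wild type. Its wild-type values enclosed all knockout values, and the change of -1.09 (SE 0.72) did not pass (adjusted p = 0.411). The lowest wild-type value was that of array 2, without which the change was -1.69 (SE 0.52, adjusted p = 0.106). With terms for the milk mean, the beta-actin difference and the adipocyte mean the change was -0.25, -0.20 and 0.17. Slc35a2, which brings UDP-galactose into the Golgi, ran between 8.61 and 9.65 in the knockout and between 8.20 and 8.62 in the wild type, a change of 0.59 (SE 0.18, adjusted p = 0.0962). The other 13 genes of the class, all of the Slc29 and Slc35 families, had changes between -0.45 and 0.67.

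The smaller classes held no gene past the threshold. Among 9 carriers of vitamins, choline and lipids, the folate carrier Slc19a1 ran between 6.92 and 7.98 in the knockout and between 7.45 and 8.59 in the wild type, a change of -0.74 (SE 0.22, adjusted p = 0.0909). Its call changed without wild-type array 2, when the change was -0.87 (adjusted p = 0.0436). The choline carrier Slc44a1 had a change of 0.56 (adjusted p = 0.139). The 4 organic ion carriers, all of the Slc22 family and within 1 log2 unit of background on every array, had changes from 0.04 to 0.14. The carriers of transmitters, taurine and creatine, Slc17a2, Slc6a6 and Slc6a8, had changes from -0.09 to 0.22. Slc45a3, left outside the classes, ran between 5.59 and 6.62 in the knockout and between 5.03 and 5.66 in the wild type (change 0.67, SE 0.18, adjusted p = 0.0641). 3 further genes have the symbol but are no carriers: Slc4a1ap, Slc9a3r1 and Slc9a3r2 are binding partners of carriers, and their changes were -0.08, -0.06 and 0.50.

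Over the 110 genes the median log2 change was 0.12, and 77 of them (70%) had a positive change, against a median of 0.0065 and 3465 of 6825 (50.8%) over all genes tested. The change exceeded 1 in size for 6 genes and 0.5 for 26. Unadjusted p-values were under 0.05 for 27 of the 110 (24.5%) and for 1332 of the 6825 (19.5%). The groups did not overlap for 4 genes with the knockout above, Slc3a2, Slc8b1, Slc31a1 and Slc25a23, and for 2 with the knockout below, Slc6a15 and Slc16a1. Over all genes tested the shares without overlap were 1.71% with the knockout above and 1.44% with the knockout below. All 11 genes that stayed within 1 log2 unit of background had a small positive change, from 0.04 to 0.20, beside array backgrounds whose mean was likewise slightly higher in the knockout, whose part was not tested. Of the other 99 genes 66 had a positive change, with a median of 0.08.

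The 152 carrier genes at or below a mean of 4 were mostly not detected. The signal was at or below array background on all 12 arrays for 120 of them and above it on at least 1 array for 32. In a fit of all 12393 genes without a filter, none of the 152 passed, the lowest adjusted p being 0.191 for Slc38a3, a glutamine carrier, and 6 had an unadjusted p under 0.05. Slc38a3 averaged 2.11 in the knockout and 3.34 in the wild type, both below the background of their genotype.

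The spread between arrays was larger in the knockout for most of these genes. The median SD within a group was 0.378 in the knockout and 0.277 in the wild type over the 110 genes, beside 0.319 in the knockout and 0.297 in the wild type over all genes tested. The SD was larger in the knockout for 78 of the 110 (70.9%) and for 3934 of the 6825 (57.6%). Second probe sets were tested for 33 of the 110 genes. Of these 50 probe sets, 7 had a change of the opposite sign and none passed, and 13 of the 110 genes rest on a probe set of a type that can match related transcripts.

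Proteins that serve or regulate carriers were counted as a list of 43 transport partners, of which 39 were on the array and 30 were tested. It holds the sodium pump subunits, chaperones of carriers, kinases that set carrier abundance and enzymes and regulators linked to the substrates. 2 rose, 1 fell and 27 did not pass, with a median change of 0.11. Over all genes tested, 1.66% rose, 1.68% fell and 3.34% passed in either direction. The list was chosen with earlier results of these data known. Sgk1, a kinase known to raise the surface abundance of several carriers and sodium channels, had signals between 5.72 and 7.19 in the knockout and between 7.30 and 9.17 in the wild type. Every knockout array lay below every wild-type array. Its mean was 6.15 ± 0.56 in the knockout and 8.43 ± 0.65 in the wild type (SD, n = 6 each), a change of -2.28 (SE 0.33, adjusted p = 0.00360) or 4.86-fold lower in the knockout, which passed with each of the 12 arrays left out. With a term for the adipocyte mean the change was -2.06 (adjusted p = 0.0708), and with one for the beta-actin difference it was -2.25 (adjusted p = 0.0591).

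Glul, glutamine synthetase, averaged 8.23 ± 0.98 in the knockout and 6.36 ± 0.45 in the wild type (SD, n = 6 each), a change of 1.87 (SE 0.40, adjusted p = 0.0295) or 3.65-fold. Knockout arrays 1, 4 and 5 lay between 8.82 and 9.33 and arrays 2, 3 and 6 between 7.14 and 7.61, where only array 6 lay below the highest wild-type array, 4, at 7.18. The call was lost without knockout array 4 or 5 or any 1 wild-type array but 4 (adjusted p from 0.0217 to 0.0633 over the 12 arrays left out in turn), and the adjusted p was 0.0578 with knockout arrays 4 and 5 averaged. Mt1, a metallothionein that binds zinc and copper, averaged 11.77 ± 0.20 in the knockout and 11.05 ± 0.41 in the wild type (SD, n = 6 each), a change of 0.73 (SE 0.18, adjusted p = 0.0470) or 1.65-fold. Among the 12 arrays left out this call was kept only without wild-type array 3 (adjusted p from 0.0389 to 0.0931), and the adjusted p was 0.0618 with knockout arrays 4 and 5 averaged. Of the list, 5 members, among them the pump subunit Atp1b2 and the scaffold Pdzk1, were at or below background on every array. Of the genes of the amino acid response, the transcription factors Atf4 and Ddit3 (changes -0.30 and 0.24), the regulator Trib3 (-0.82, adjusted p = 0.123) and asparagine synthetase, Asns (0.30), did not pass.

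**Figure D4:**
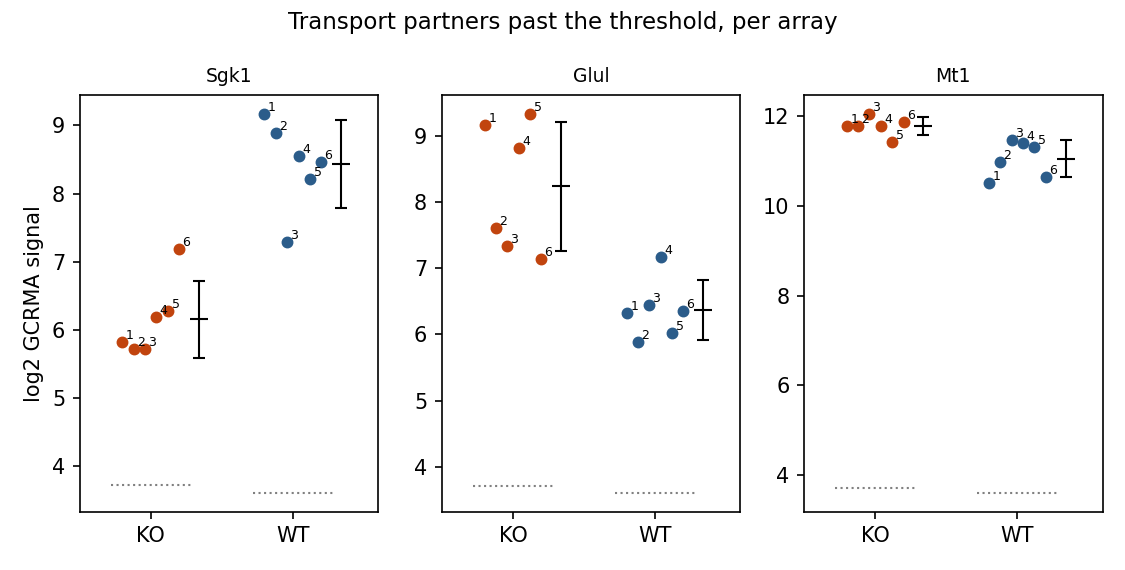
Log2 GCRMA signal of the 3 transport partners that passed the threshold, with 1 point per array, for the 6 knockout arrays on the left and the 6 wild-type arrays on the right of each panel, mean and SD beside them and dotted lines at the mean array background. Sgk1 lies lower in all 6 knockout arrays, and the knockout values of Glul form a higher set of arrays 1, 4 and 5 and a lower set of arrays 2, 3 and 6.

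Some markers of adipocytes, of milk and alveolar epithelium and of luminal epithelium differed between the genotypes. In whole tumours fewer cells of a type and less RNA per cell cannot be told apart. For the counts below, 1.66% of all genes tested rose. The summed signal of 10 adipocyte markers, on the linear scale, had a range of 1687 to 7838 in the knockout and of 414 to 1762 in the wild type, and 1 of the 4 tested markers, Pnpla2, rose. The other tested markers, Fabp4, Car3 and Thrsp, had positive changes of 1.51, 2.36 and 2.27 that did not pass. Fabp4 reached 11.19 and Car3 9.49 in knockout array 2. Adipoq, a defining marker, was at 6.29 in that array and at or below background in the other 11, and Plin4, Lep, Cidec, Retn and Lipe were at or below background on all arrays. The adipocyte mean used as a covariate was that of the 4 tested markers, and whether it follows adipocyte content was not tested. The 15 milk and alveolar markers summed to 2819 to 63325 in the knockout and 3040 to 31627 in the wild type. 2 of 12 tested, Ltf and Elf5, rose, and Cel was at background. Of these 12, 11 had a positive change, and the negative one was that of Csn3 (-2.25, limma adjusted p = 0.419), which did not pass. In knockout arrays 1, 4 and 5 Ltf was at 12.77, 10.42 and 10.33, while the casein gene Csn2 was below background at 2.30, 2.24 and 2.29. The rise of Ltf and Elf5 thus did not follow Csn2 across the knockout arrays. The 14 luminal markers summed to 15709 to 22996 in the knockout and 12044 to 19485 in the wild type, with Krt19 and Cd24a risen among 9 tested and Esr1, Pgr and Foxa1 at background. Of these 9, 6 had a positive change, and the largest negative one was that of Kit (-2.95, limma adjusted p = 0.0876), which did not pass. Prom1, not tested, averaged 2.33 in the knockout and 5.00 in the wild type. Lists of basal, macrophage, lymphocyte, fibroblast, endothelial and muscle markers held no gene past the threshold, and no erythrocyte marker was tested. Knockout array 3 had a summed muscle signal of 8462, against 77.9 to 114 in the other knockout arrays and 76.7 to 643 in the wild type.

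With the adipocyte mean as a covariate, Slc6a15 kept its call (change -3.43, adjusted p = 0.0180), and Slc15a2 (1.76, adjusted p = 0.202), Slc3a2 (0.94, adjusted p = 0.216), Slc5a1 (0.35, adjusted p = 0.325) and Slc8b1 (0.56, adjusted p = 0.134) did not. The adipocyte sum and the beta-actin difference were both mostly higher in the knockout. A term for either thus overlaps with genotype and can widen the SE of the change. For Slc3a2 the SE was 0.34 with the adipocyte mean against 0.23 as reported, and for Slc8b1 0.16 against 0.11. Such fits cannot tell genotype and covariate apart where a call is lost. With the milk mean, Slc6a15 (-2.70, adjusted p = 0.0125) and Slc8b1 (0.52, adjusted p = 0.0424) kept theirs, and Slc15a2 (1.91, adjusted p = 0.0513), Slc3a2 (0.82, adjusted p = 0.0898) and Slc5a1 (0.44, adjusted p = 0.0865) did not. Of 26 named carrier genes that did not pass and were followed through every alternative, the change moved by over 1.5 times for 20 with the beta-actin term, being smaller or of the other sign for 15, for 18 with the adipocyte mean (15) and for 10 with the milk mean (10).

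**Figure D5:**
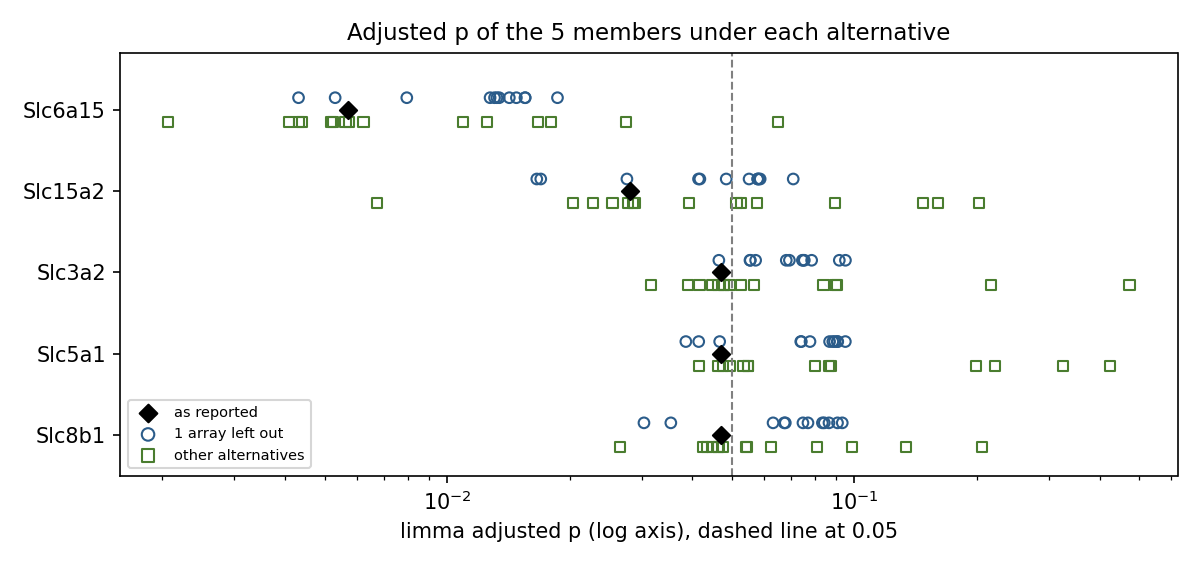
Adjusted p of limma, on a log axis, for the 5 genes that passed, as reported (diamonds), with each of the 12 arrays left out (circles) and under the other alternatives (squares), with a dashed line at 0.05. Slc6a15 stays left of the line in every fit but 1, and the points of the other 4 genes lie on both sides of it.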

How the data were processed

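Expression was measured on 12 arrays, 6 of Hunk KO and 6 of Hunk WT tumours, grouped by their labels. The deposited values were log2 signals that the authors made with GCRMA, per the submitters' processing notes, which give no version; background correction and normalization settings are not given in the sources used here. The table held 22690 probe sets with values from -0.07 to 14.72 and array medians from 3.87 to 4.10. The number of arrays limits the precision, and GCRMA compresses changes near background.

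Symbols came from the platform annotation, updated through a RefSeq table of GRCm38.p6. A single symbol was listed for 20393 probe sets, of which 20364 were matched, more than 1 for 691 and no entry for 1606. Each gene was its probe set of highest mean. Genes above the median of the probe-set means (3.98) entered the test, limma 3.58.1 (lmFit, eBayes with trend) in R 4.3.3, with genotype as its term and p-values adjusted by Benjamini-Hochberg over all 6825 genes, at 0.05. Probe sets were not compared with each other in level.

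The members, classes and lists were chosen with earlier results of these data known. Named by rule were the members past the threshold, up to 2 of the largest positive and negative changes in each of 6 classes, relatives of called members, genes next to the mean limit and partners past the threshold. The other genes given with values, Slc7a5, Slc16a1, Slc16a3, Slc28a3, Slc29a1, Slc19a1, Slc35a2, Slc39a7, Slc45a3 and Bsg among them, were chosen after their values were seen, and so was the placing of Slc4a1ap among the genes that are no carriers.

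Alternatives covered filters, gene summaries, variance models, normalization, array weights, a replicate block, averaging of knockout arrays 4 and 5, 3 covariates, a floor at background and leaving out each array. The same code was tested on simulated data over 6792 genes, drawn as independent normal values with the mean and pooled SD of each gene. Changes of 1 on the log2 scale were recovered in 66.0% and of 2 in 93.6%, with 10 false calls among 160. The simulation did not include arrays as alike as knockout arrays 4 and 5, unequal spread of the genotypes or outlying arrays. These rates therefore do not carry over directly to the comparison of the genotypes. The sources used here name no batch.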

Additional observations from a re-analysis of the deposited data

Results flagged for a closer look

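Among the values of 6 arrays of a genotype, 39 of 220 sets held an array far from the others by Dixon's criterion, 21 in the knockout and 18 in the wild type, where chance would flag about 5% of sets. Knockout arrays 1 and 3 accounted for 8 each and wild-type array 5 for 7. Of the named genes, knockout array 1 stood apart as high for Slc31a1 (7.28), Slc31a2 (8.22), Slc30a7 (7.74), Slc39a1 (5.78) and Slc9a3r2 (8.63), and as low for Slc16a1 (7.66). Its other 2 were Slc66a2 (7.71, high) and the ADP and ATP exchanger Slc25a4 (9.48, low). Of these 8 genes only Slc31a1 was named by rule, and the others were named after their values were seen. Without knockout array 1 the changes of Slc31a1 (0.48, limma adjusted p = 0.0446) and Slc16a1 (-0.58, adjusted p = 0.0317) passed the threshold.

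Knockout array 3, the array with the highest summed muscle marker signal, stood apart as high for Slc4a4 (5.43). In the wild type, array 2 stood apart as low for Slc3a2 (8.37), array 1 as high for Slc25a37 (8.71), array 5 as high for Slc16a3 (4.37) and Slc20a2 (7.32), and array 6 as high for Slc9a3r2 (6.34). The causes of these values were not tested.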

How the results depend on the processing

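The call of Slc6a15 was kept in all 12 fits with 1 array left out and in 14 of 15 other alternatives. With 1 array left out, 0 to 5 carrier genes were higher, 1 to 2 lower, and 95 to 212 of all genes passed; no carrier was higher without wild-type array 1, 4 or 5, 5 were without knockout array 1, and 95 genes passed without wild-type array 4. Against 4 higher as reported, 0 were higher without a filter and with the adipocyte covariate. 1 was higher with the probe set of largest variance, knockout arrays 4 and 5 averaged (Slc8b1) and the beta-actin covariate (Slc31a1). 2 were higher with eBayes without trend, quantile normalization and the milk covariate. 2 were also higher with a mean above 5, where Slc5a1 and Slc8b1 were not tested and Slc15a2 and Slc3a2 kept their calls. Array weights gave 6, with Slc16a3 and Slc39a7 added. Against 1 lower, 2 were lower with array weights and 3 with the beta-actin covariate. Against 228 of all genes, 112 passed without a filter, 390 with array weights, 125 with arrays 4 and 5 averaged, 72 with the beta-actin covariate (46 of them among the 228) and 50 with the adipocyte covariate (32 of them). Centring each array on its median gave 146 higher and 101 lower genes, against 113 and 115, and moved the median by under 0.1.

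The labels do not say whether the replicate numbers pair the arrays. Over all genes tested, same-numbered arrays had correlations of deviations from -0.04 to 0.14, and 1 of the 6 numbers matched best both ways. Such correlations cannot decide on pairing for single genes. The replicate block lowered the SE of Slc28a3 from 0.83 to 0.37 and of Slc12a2 from 0.54 to 0.25. It raised that of Slc6a15 from 0.41 to 0.51 and of Slc15a2 from 0.42 to 0.46. With the replicate block, 1 carrier was higher (Slc28a3, adjusted p = 0.0220), 0 were lower and 69 of all genes passed by limma; Slc6a15 had an adjusted p of 0.0648. Changes turned sign with the beta-actin covariate for Slc15a4 (0.48), Slc15a1 (-0.037), Slc2a1 (-0.066), Slc4a4 (-0.043), Slc25a17 (0.28), Slc30a5 (0.26) and Slc7a5 (-0.034), with the adipocyte covariate for Slc15a1 (-0.0022), Slc38a1 (0.083) and Slc29a1 (0.17), with the milk covariate for Slc15a4 (0.0024), and without knockout array 6 for Slc15a4 (0.063, with a range of -0.35 to 0.063 over the 12 fits); none of these passed in either fit. The causes were not tested, except that fits without an array hold fewer samples and the unfiltered fit adjusts over more genes. Class medians moved beyond their spread in 2 of 315 repeats. Genes near background have little range, which limits what their changes can show.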
